A study of Mus musculus with 6 samples.

Results

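The subject is 10 genes for basic leucine zipper transcription factors: 4 of the C/EBP family (Cebpa, Cebpb, Cebpd and Cebpg), 5 of the JUN and FOS families that make up AP-1 (Jun, Junb, Jund, Fos and Fosl2), and the small MAF gene Maff. They were chosen by name, with earlier results of these data known, and each stood on 1 of the 22488 gene rows of each file. Whole livers of male wild type C57BL/6 mice, 6 to 8 weeks old, were measured by RNA sequencing in 3 control and 3 LPS libraries. Control mice received 200 µl of HBSS, a buffered salt solution, into the peritoneum, although a separate label field lists them as having no treatment. LPS mice received 6 mg/kg of lipopolysaccharide, the endotoxin of Gram-negative bacteria, by the same route. All mice were fasted for 16 h before the experiment. When the livers were taken after the injection is not stated in the labels. The labels number the libraries of each group as repeat experiments 1 to 3 and do not say whether each is a separate mouse, so the p-values measure the spread between these libraries.

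These proteins bind DNA as pairs held together by a coiled stretch of leucines, and which partners are present sets which sites are bound. In hepatocytes C/EBPα keeps up genes of metabolism and of differentiated function, while C/EBPβ and C/EBPδ are known for driving acute-phase genes after interleukin-6 and interleukin-1. AP-1 is a pair of a JUN protein with a FOS, ATF or second JUN protein. Some of its genes, such as Fos and Jun, are classic immediate early genes, switched on briefly by stress and cytokine signals through the JNK, ERK and p38 kinases. Small MAF proteins lack an activation domain and pair with each other or with NRF2-type factors.

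The promoter stretches below are shown because the members split into rising, falling and unsettled genes although several carry the same short elements near the start site. They are RefSeq promoter sequences on mouse build GRCm38.p6, 5′ to 3′ on the gene's own strand, and each ends at the base before the RefSeq start site. Capitals mark the TATA box letters TATAAA, the core TGACG of the cyclic AMP element (or its reverse complement), and the C/EBP type sequence TTNCNNAA.
Cebpa, chr7:35119253-35119292, plus strand: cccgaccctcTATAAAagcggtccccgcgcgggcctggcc
Cebpb, chr2:167688725-167688914, plus strand: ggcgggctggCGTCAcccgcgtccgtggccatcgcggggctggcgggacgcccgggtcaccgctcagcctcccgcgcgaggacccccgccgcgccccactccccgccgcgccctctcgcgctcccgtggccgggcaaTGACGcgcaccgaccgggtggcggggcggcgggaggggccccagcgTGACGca
Fos, chr12:85473751-85473889, plus strand: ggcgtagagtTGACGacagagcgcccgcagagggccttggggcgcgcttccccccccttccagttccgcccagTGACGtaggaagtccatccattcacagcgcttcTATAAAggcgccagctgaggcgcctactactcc
Junb, chr8:84978749-84978864, minus strand: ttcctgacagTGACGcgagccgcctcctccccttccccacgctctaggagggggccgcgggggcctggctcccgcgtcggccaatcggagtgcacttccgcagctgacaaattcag
Maff, chr15:79346556-79346620, plus strand: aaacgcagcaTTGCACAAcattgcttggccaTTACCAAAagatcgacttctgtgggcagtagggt

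Of the 10 members, 9 had a promoter entry of 300 bases, from 250 before to 50 after the start, and Cebpd is named only. The core TGACG, like every element searched on both strands, stood in the promoters of Cebpb, Fos and Junb, 3 of 9, against 20.8% of 32851 promoters. TATAAA stood in those of Cebpa, Cebpb, Fos and Junb, 4 of 9 against 13.6%. In Cebpa and Fos it lay 30 and 33 bases before the RefSeq start, and in Cebpb and Junb at or after it, at bases 22 and 1. The GENCODE model, which gives the gene coordinates below, starts Junb 30 bases further downstream. In Junb TATAAA thus lies before the GENCODE start. The C/EBP type sequence TTNCNNAA stood in Jund and Maff, 2 of 9 against 40.7%. The RefSeq start of Jund lies 1210 bases upstream of its GENCODE start, and that of Fosl2 671 bases downstream. The windows searched for Jund and Fosl2 are therefore not those around their GENCODE starts. The AP-1 site TGANTCA, the full cyclic AMP element TGACGTCA (which holds the core), the STAT type TTCNNNGAA, the NF-κB type site and the serum response element were in none of the 9 windows, against 7.81%, 1.79%, 8.3%, 5.56% and 1.63% of all promoters. Of the other RefSeq starts of Maff, 1 had TGACGTCA 29 bases before it and the STAT type sequence at base 28 after it, and 1 had the core alone. A match to such letters is a description, and its absence says only that they were not in these windows.

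All 10 members passed the filter on low counts. With LPS, 6 of them rose and 2 fell in edgeR's quasi-likelihood test at an adjusted p under 0.05. Over all 12078 genes tested the same test called 62.3%, with 31.3% higher and 31.0% lower, so most liver genes changed and a call alone sets no member apart. The median log2 change of the members was 1.02, against 0.01 for all genes. A call together with a change of at least 2-fold was reached by 7 members, 5 up and 2 down, against 34.2% of all genes. As the members were chosen with earlier results known, these comparisons with all genes are descriptions. In 7 members the 3 LPS values lay entirely outside the 3 control values, against 67.4% of all genes, a share close to that of the members. The 3 with overlapping groups were Fos, Jun and Maff. Values below are CPM, a gene's counts as a share of the library total scaled by the trimmed mean of M values (TMM), and a log2 change is LPS minus control.

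**Figure D1:**
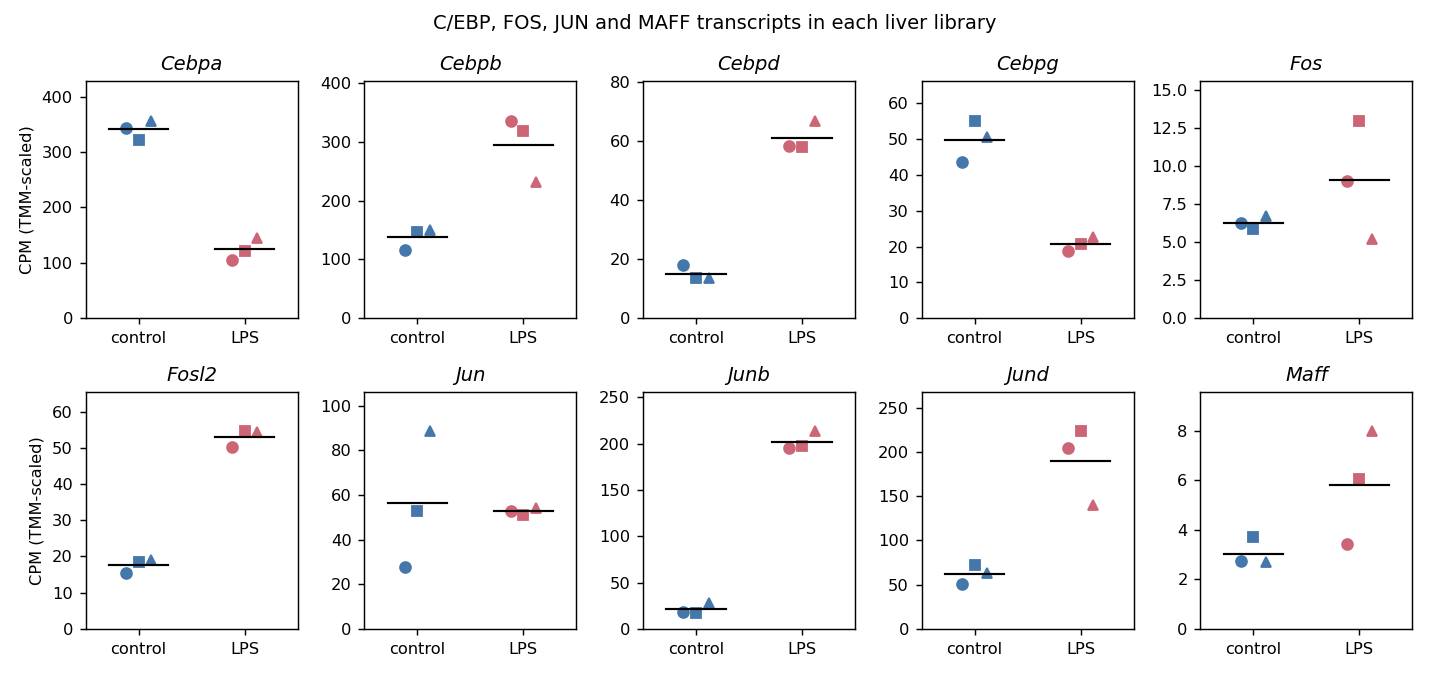
CPM (linear axis from 0, scaled for each gene) of each of the 10 members in the 3 control (blue) and 3 LPS (red) libraries; circle, square and triangle are replicates 1, 2 and 3, and the black line is the group mean. The groups are apart for the 4 C/EBP genes, Fosl2, Junb and Jund, and overlap for Fos, Jun and Maff.

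Library totals ran from 11488525 to 20282004 counts. Whole liver holds many cell types, so fewer cells of a type and less RNA per cell cannot be told apart here. Hepatocyte markers were high throughout, summing to between 111122 and 124512 CPM in control and between 69446 and 94905 CPM with LPS, and 7 of 9 tested fell while 1 rose. Of the Kupffer cell markers 8 of 9 fell and 1 rose, their sum going from 314 to 358 CPM down to 82.1 to 132 CPM. All 9 neutrophil markers tested rose, from sums of 4.37 to 7.93 CPM to 217 to 265 CPM. Of 8 monocyte markers 6 rose and 1 fell, with sums of 1017 to 1142 CPM in control and 1584 to 2913 CPM with LPS. Most of the monocyte sum was 1 gene, Fn1, at means of 1017.8 CPM in control and 2085.5 CPM with LPS. The monocyte marker that fell was Lyz2, from 41.6 to 9.76 CPM. Of the other lists, the higher and lower calls were 2 and 6 of 10 for sinusoidal endothelium, 1 and 6 of 10 for stellate cells, 4 and 1 of 6 for bile duct cells, 2 and 0 of 5 for T and NK cells, 0 and 2 of 5 for B cells and 2 and 1 of 5 for haemoglobin. No marker of these lists was at 0 in all libraries. The part of these shifts in the members' changes was not tested.

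Among the C/EBP genes the 2 highest in control liver moved in opposite directions. Cebpa, the C/EBP factor of the differentiated hepatocyte, is a single-exon gene at chr7:35119293-35121928 (GRCm38). It stood at 344, 322 and 357 CPM in the control libraries and at 105, 122 and 145 CPM in the LPS libraries. Every LPS value was far below the lowest control value. Its mean fell from 341 ± 17.5 to 124 ± 20.2 CPM (SD, n = 3 each), a log2 change of -1.46 (SE 0.14, 95% interval -1.75 to -1.16, edgeR adjusted p = 7.533e-07).

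Cebpb, the acute-phase C/EBP factor, is a single-exon gene at chr2:167688915-167690418. It read 115, 147 and 150.3 CPM in control and 336, 317 and 232 CPM with LPS, and the third LPS library was the lowest of its group yet above every control. The log2 change was 1.1 (SE 0.16, interval 0.76 to 1.44, edgeR adjusted p = 4.034e-05), with means of 138 ± 19.3 and 295 ± 55.6 CPM. On the opposite strand the annotated exons of Tmem189 cover 312 of its bases, 20.7% of the gene. Tmem189 itself rose, from 732 to 4411 counts in all, a log2 change of 2.86. Whether the counting used strand is not given in the sources used here, so reads in the shared stretch could not be assigned to one of the 2 genes.

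Cebpd, which accompanies Cebpb in the acute-phase response, lies at chr16:15887286-15891031. It was low in control, at 18.0, 13.7 and 13.5 CPM, and reached 58.4, 57.9 and 66.9 CPM with LPS. The LPS libraries stood close together and well above every control. Cebpd rose by 2.02 on the log2 scale (SE 0.15, interval 1.71 to 2.34, edgeR adjusted p = 4.679e-08), the largest change of the 4 C/EBP members. Opposite-strand exons of Spidr share 562 bases with it, and Spidr had 106 counts in control and 81 with LPS, with a log2 change of -0.08.

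Cebpg codes for the short C/EBP protein that lacks an activation domain and acts mainly as a partner of other zippers. It lies at chr7:35046422-35056573 on the minus strand, 62.7 kb from Cebpa with no protein-coding gene between them. Its control values were 43.7, 55.2 and 50.6 CPM and its LPS values 18.7, 20.7 and 22.7 CPM. These groups did not overlap, and the change was -1.27 on the log2 scale (SE 0.14, interval -1.56 to -0.97, edgeR adjusted p = 2.613e-06). The neighbours Cebpa and Cebpg were the 2 members that fell.

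The JUN genes showed 2 clear rises and 1 unsettled gene. Junb, which codes for a JUN protein that activates transcription more weakly than c-Jun, lies at chr8:84974484-84978718 on the minus strand. It read 18.7, 16.9 and 28.4 CPM in control and 195, 197 and 213 CPM with LPS. Junb was thus 9.45-fold higher with LPS, a log2 change of 3.24 (SE 0.18, interval 2.85 to 3.63, edgeR adjusted p = 3.917e-09). This was the largest change of the 10 members, and rank 325 from the top among all genes tested. Prdx2 exons on the other strand share 173 bases with Junb, 7.52%, and Prdx2 fell by 0.70 on the log2 scale.

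Jund, the JUN gene known for steady expression in resting cells, is a single-exon gene at chr8:70698949-70700616. Its values were 50.4, 72.6 and 63.4 CPM in control and 204, 223 and 140.2 CPM with LPS. The lowest LPS value, again in the third library, was well above the highest control. Jund rose by 1.60 on the log2 scale (SE 0.18, interval 1.22 to 1.99, edgeR adjusted p = 3.936e-06). The antisense gene Gm11175, which has no row of its own in the files, covers 877 bases of Jund, 52.6%, so antisense reads may be counted in it.

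Jun, which codes for c-Jun, lies at chr4:95049034-95052222 on the minus strand. It spanned 27.6, 52.8 and 88.5 CPM over control replicates 1, 2 and 3, while the LPS libraries read 52.7, 50.9 and 54.3 CPM. All LPS values lay inside the control range. The antisense gene Junos, which has no row of its own, shares 232 bases with Jun. The log2 change was -0.10 (SE 0.28, interval -0.70 to 0.50, edgeR adjusted p = 0.774), an interval that holds both a rise and a fall. Its sign depended on single control libraries: the estimate was 0.36 without control replicate 3 (adjusted p = 0.192) and -0.43 without control replicate 1 (adjusted p = 0.0685), and with a term for the repeat number it was 0.04 (adjusted p = 0.889). The log2 SD of Jun was 0.84 in control, above that of 96.9% of tested genes, and 0.05 with LPS, above 4.56% of them.

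The other immediate early genes also spread in the control libraries. Of 15 such genes tested, 12 had a larger log2 SD in control than with LPS, as did 46.7% of all tested genes, and 6 were lowest in control 1 and highest in control 3, as were 17.2% of all. Nr4a1, an orphan nuclear receptor, read 5.30, 15.2 and 37.1 CPM over control replicates 1, 2 and 3, and Dusp1, a phosphatase of the MAP kinases, read 15.5, 28.7 and 52.7 CPM. Egr1, a zinc finger factor, went the other way, at 96.1, 33.3 and 32.1 CPM. These 3 genes were picked after their values were seen. Of 9 heat shock genes, listed as a sign of tissue handling, 7 fell and none rose, their sum going from 2600.1 to 3080.4 CPM in control to 1349 to 1702 CPM with LPS. Whether handling had a part in the spread of Jun was not tested.

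Of the FOS genes, Fosl2 rose and Fos did not pass the test. Fosl2, which codes for the FOS-related protein Fra-2, lies at chr5:32135801-32157842. It read 15.4, 18.5 and 18.9 CPM in control and 50.1, 54.6 and 54.5 CPM with LPS. The spread within each group was small beside the gap between them, and Fosl2 rose by 1.59 on the log2 scale (SE 0.13, interval 1.31 to 1.87, edgeR adjusted p = 1.805e-07).

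Fos, the prototype immediate early gene, lies at chr12:85473890-85477273. Its control values of 6.24, 5.89 and 6.73 CPM were close together, and its LPS values of 9.04, 13.01 and 5.204 CPM lay on both sides of them. The log2 change was 0.53 (SE 0.29, interval -0.09 to 1.15, edgeR adjusted p = 0.124). It passed the test only without LPS replicate 3, at 0.83 (adjusted p = 0.00994), and was 0.18 without LPS replicate 2.

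Maff, the stress-induced small MAF gene, lies at chr15:79346621-79359076 and was the lowest member, with 153 counts over the control and 238 over the LPS libraries. It read 2.73, 3.70 and 2.69 CPM in control and 3.41, 6.05 and 7.98 CPM with LPS. The first LPS library lay within the control range. Maff passed the test at a log2 change of 0.93 (SE 0.33, interval 0.22 to 1.64, edgeR adjusted p = 0.0253). That call was lost without control replicate 1 (0.86, adjusted p = 0.0696), control replicate 3 (0.82, adjusted p = 0.0887), LPS replicate 2 (0.91, adjusted p = 0.0536) or LPS replicate 3 (0.65, adjusted p = 0.136).

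**Figure D2:**
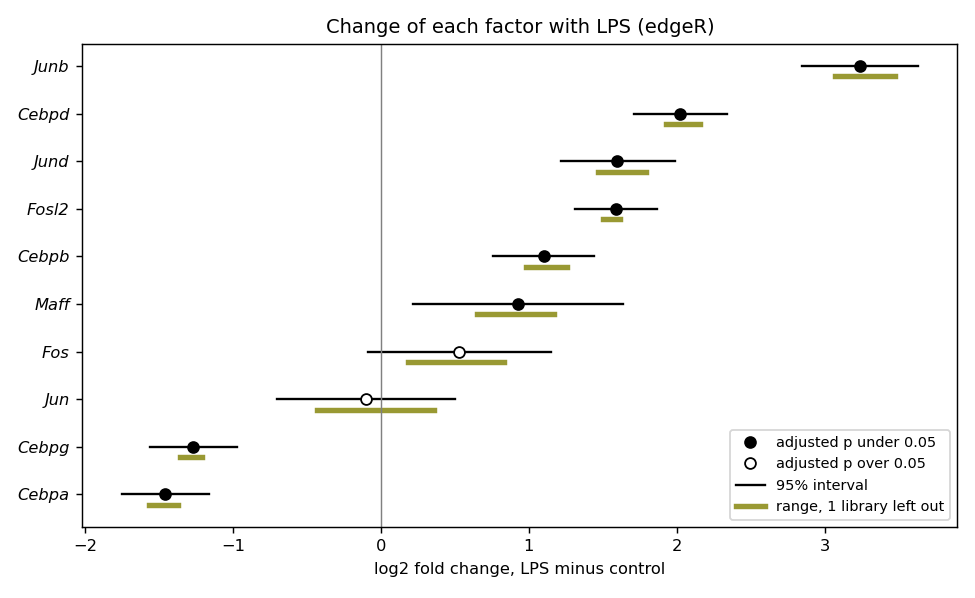
Log2 change, LPS minus control, of each of the 10 members (horizontal axis, in log2 units) with its 95% interval from edgeR (black line) and the range of estimates with 1 library left out (olive bar); filled points have an adjusted p under 0.05. Junb stands highest at 3.24, Cebpa and Cebpg lie below 0, and the intervals of Fos and Jun cross 0.

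Levels of different genes were compared per length, as CPM per kb of annotated exon. In control liver Cebpa led at 129 ± 6.63 CPM per kb, followed by Cebpb at 91.4 ± 12.8, Jund at 37.2 ± 6.71, Jun at 17.7 ± 9.6, Junb at 9.28 ± 2.69 and Cebpg at 8.87 ± 1.03 (SD, n = 3). Below them came Cebpd at 4.02 ± 0.68, Fos at 2.67 ± 0.181, Fosl2 at 1.82 ± 0.202 and Maff at 1.17 ± 0.22 CPM per kb. The neighbours Jun and Junb overlapped in this order, as did Junb and Cebpg. With LPS the order changed at the top: Cebpb led at 196 ± 37.0 CPM per kb, then Jund at 113 ± 26.0, Junb at 87.6 ± 4.39, Cebpa at 47.2 ± 7.65, Jun at 16.5 ± 0.535 and Cebpd at 16.3 ± 1.35. The lowest 4 were Fosl2 at 5.48 ± 0.261, Fos at 3.86 ± 1.66, Cebpg at 3.68 ± 0.355 and Maff at 2.24 ± 0.885 CPM per kb. With LPS, Jund and Junb overlapped, as did Jun and Cebpd, Fosl2 and Fos, and Fos and Cebpg. These orders rest on the gene model: the RefSeq models of Jund (2878 bases against 1668) and Cebpd (2260 against 3746) would give Jund 21.6 and 65.7 and Cebpd 6.67 and 27.0 CPM per kb in control and LPS, which would put Jund below Junb with LPS.

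Within the C/EBP members the summed level moved little while its make-up turned over. Other genes of the family were left out of this sum, among them Ddit3, at means of 9.71 CPM in control and 64.3 CPM with LPS. The sum was 234 ± 14.1 CPM per kb in control and 263 ± 28.03 with LPS, and the ranges of the 2 groups overlapped, at 220 to 248 and 231 to 282 CPM per kb. The share of Cebpa went from 55.5 ± 3.57% to 18.3 ± 5.03% of that sum, and the share of Cebpb from 39.0 ± 3.65% to 74.0 ± 6.55%. Cebpd went from 1.74 ± 0.395% to 6.28 ± 1.25%, and Cebpg from 3.79 ± 0.362% to 1.42 ± 0.293%.

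The JUN sum itself was higher with LPS, at 64.2 ± 15.8 against 218 ± 21.4 CPM per kb. Junb went from 14.7 ± 3.35% to 40.7 ± 6.23% of it, Jun from 26.2 ± 8.68% to 7.66 ± 1.03% and Jund from 59.2 ± 9.1% to 51.7 ± 7.24%. These JUN shares rest on the gene model too. With the RefSeq length Jund would stand at 21.6 CPM per kb in control and 65.7 with LPS, the latter below Junb at 87.6. In the FOS family, the sum was 4.68 ± 0.481 CPM per kb in control and 10.2 ± 1.89 with LPS, so FOS transcripts were far below JUN transcripts in both groups. Fos made up 57.2 ± 3.15% of it in control and 36.9 ± 9.88% with LPS, and Fosl2 38.9 ± 3.62% and 55.1 ± 10.1%. Taking the longest transcript as the length, an alternative chosen after the data were seen, put Fos at 50.6% and Fosl2 at 45.6% in control. Among the small MAF genes Mafg was the main transcript, at 78.2 ± 2.63% and 59.6 ± 3.85%, while Maff went from 5.58 ± 1.54% to 13.2 ± 4.13%.

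**Figure D3:**
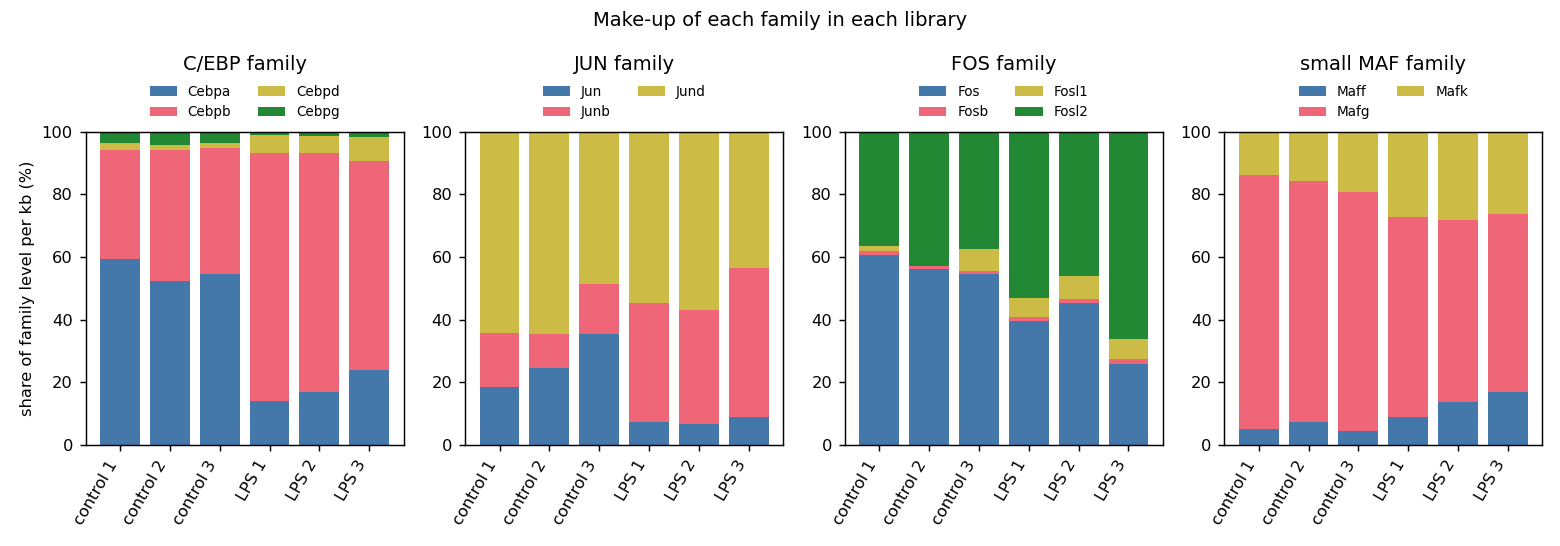
Percent of each family's summed level per kb that each gene made up, in each of the 6 libraries, for the C/EBP, JUN, FOS and small MAF families. The C/EBP and JUN sums hold the members only, while FOS also holds Fosb and Fosl1, and small MAF also Mafg and Mafk. Cebpb is the largest part of the C/EBP sum in the 3 LPS libraries (66.7% to 79.1%) and Cebpa in the 3 control libraries (52.4% to 59.4%).

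A ratio of 2 members inside 1 library does not depend on the scaling of that library. With 3 libraries against 3 the smallest 2-sided exact permutation p is 0.1, so no ratio could pass 0.05. Each of the 7 ratios reached 0.1 with groups that did not overlap (0.1 adjusted over the 7). Groups apart are common here, at 67.4% of all single genes tested. The share for ratios of other gene pairs was not computed, so the 7 ratios apart are a description. The count of Cebpb over Cebpa was 0.335, 0.456 and 0.421 in control and 3.19, 2.60 and 1.59 with LPS. Cebpb thus had fewer counts than Cebpa in each control library and more in each LPS library, a shift of 2.56 in the mean log2 ratio. Cebpd over Cebpa shifted by 3.49 and Cebpb over Cebpg by 2.36.

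Junb over Jun was 0.678, 0.321 and 0.321 in control and 3.69, 3.87 and 3.92 with LPS, a shift of 3.21. Its LPS values were close together (log2 SD 0.05, against 0.62 in control). Jun over Jund shifted by -1.54, Fosl2 over Fos by 1.16 and Maff over Mafg by 1.62. The Fosl2 to Fos ratio spread with LPS, at 5.53, 4.19 and 10.4.

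**Figure D4:**
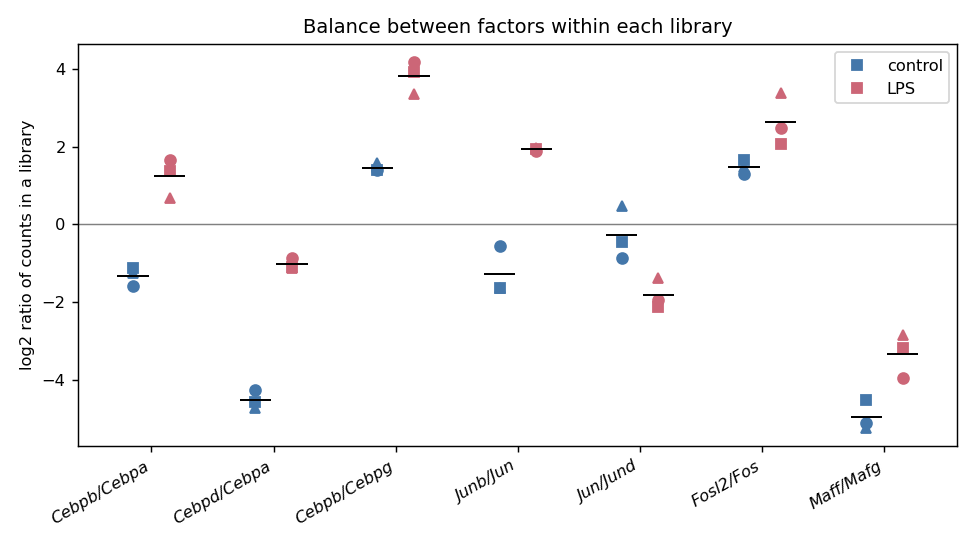
Log2 of 7 within-library count ratios between members (and Maff over Mafg), in control (blue) and LPS (red) libraries; circle, square and triangle are replicates 1, 2 and 3, and the black line is the group mean. All 7 pairs of groups are apart, a description without a share for other gene pairs. Jun over Jund is lower with LPS, a direction that depends on which gene is the numerator.

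The lists of related genes below, like the members, were drawn up with earlier results of these data known, and their counts are a description, to be read beside the 31.3% higher, 31.0% lower and median of 0.01 of all genes. Of the other C/EBP genes tested, 1 of 3 rose and 1 fell, with a median log2 change of 0.10. Ddit3, which codes for the stress-induced C/EBP partner CHOP, rose from 9.71 ± 0.526 to 64.3 ± 8.45 CPM, a log2 change of 2.72 (edgeR adjusted p = 2.045e-09). Cebpe, the C/EBP gene of maturing granulocytes, read 5.85, 2.14 and 2.05 CPM in control and 1.19, 0.422 and 1.14 CPM with LPS. It fell by 1.85 on the log2 scale, a call that was lost without control replicate 1 (-1.2, adjusted p = 0.0797).

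Of 13 other FOS, ATF and BATF genes tested, 9 rose and 1 fell, with a median log2 change of 0.67. Atf4, the main factor of the integrated stress response, rose from 97.8 ± 10.2 to 473 ± 34.4 CPM, a log2 change of 2.27 (edgeR adjusted p = 6.120e-09). Atf5, its relative that is abundant in liver, was the 1 that fell, from 754 ± 51.0 to 143 ± 18.6 CPM, a log2 change of -2.40 (edgeR adjusted p = 5.844e-09). Atf3, a stress-induced repressor, read 0.468, 3.60 and 2.82 CPM in control and 5.80, 6.33 and 5.70 CPM with LPS. It rose by 1.32, and its estimate ran from 0.88 to 1.78 with 1 control library left out. Batf2 had 0, 10 and 0 counts in control and 36, 39 and 66 with LPS, and Batf had 6, 14 and 6 against 22, 20 and 42, and both rose. Atf1, Atf6 and Atf7 rose by 0.67, 0.63 and 0.52 on the log2 scale, the call of Atf7 being lost without control replicate 2 (0.41, adjusted p = 0.0513). Fosl1, with 2, 0 and 12 control and 14, 26 and 16 LPS counts, and Atf2, at a log2 change of 0.39, each passed but lost the call in 4 of the 6 refits that left out 1 library.

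Of 9 other MAF family genes and their CNC partners tested, 2 rose and 5 fell, with a median log2 change of -0.47. Mafg, the most abundant small MAF transcript, fell from 93.7 ± 9.11 to 55.3 ± 2.15 CPM, a log2 change of -0.76 (edgeR adjusted p = 9.998e-05). Nfe2l1, an NRF2 relative that controls proteasome genes, fell from 155 ± 5.52 to 93.6 ± 3.03 CPM. Nfe2l2, which codes for NRF2, rose from 55.3 ± 7.80 to 78.3 ± 5.78 CPM, a log2 change of 0.50. Nfe2, the myeloid and megakaryocyte CNC gene, had 0, 4 and 6 counts in control and 30, 52 and 36 with LPS, and rose. The falls of Maf and Bach1 (-0.56 and -0.40) each lost their call without some single libraries, at -0.30 for Maf without control replicate 2 and -0.28 for Bach1 without LPS replicate 1. Of 13 other zipper genes of liver, 5 rose and 6 fell, with a median of -0.27. Xbp1, a factor of the unfolded protein response, rose from 157 ± 9.04 to 691 ± 48.8 CPM, Creb3l2 by 1.47 and Nfil3, a repressor of the circadian D-box, by 1.2 on the log2 scale.

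Of 15 other immediate early genes, 12 rose and none fell, with a median of 1.07. Ier3 rose from 0.894 ± 0.49 to 138 ± 16.5 CPM, Btg2, an antiproliferative gene, from 16.9 ± 5.84 to 215 ± 42.8 CPM and Klf6 from 7.70 ± 1.44 to 44.0 ± 7.66 CPM. Fos and Jun, with log2 changes of 0.53 and -0.10, thus stood beside 3 genes of that list that did not pass, Egr1 (0.25), Nr4a1 (-0.36) and Nr4a2 (-0.95). Of 29 genes upstream of AP-1, kinases, adaptors and the transcription factors Elk1, Elk3 and Elk4, 13 rose and 7 fell, with a median of 0.13. Map3k8, which activates ERK downstream of the LPS receptor, rose by 3.24 and Tab2, an adaptor of TAK1, by 1.36, while Map3k5, the stress kinase ASK1, fell by 1.65 on the log2 scale. Of 12 genes for the turnover of C/EBP and JUN proteins, 5 rose and 1 fell, with a median of 0.19. Trib2, which directs C/EBPα to degradation, rose from 1.75 ± 0.71 to 17.8 ± 1.21 CPM, and Cop1, the ubiquitin ligase that works with Trib2, fell by 0.76 on the log2 scale.

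Hepatocyte genes known to be regulated by C/EBP factors divided evenly, with 10 of 20 higher and 10 lower and a median of 0.44. The 3 with the smallest adjusted p were acute-phase genes, Lcn2, Saa2 and Orm2, which rose by 9.96, 9.14 and 5.54 on the log2 scale. Saa2 and Orm2 have near-identical neighbours, Saa1 and Orm1, so how their reads were divided is uncertain. Of 17 genes known to be regulated by AP-1, 11 rose and 3 fell, with a median of 3.77. Mt1, the metallothionein gene, rose from 60.3 ± 20.8 to 6047 ± 127 CPM, and Cxcl1, a neutrophil chemokine, and Plaur, the urokinase receptor, rose by 7.58 and 5.07. Many genes of these 2 lists answer to NF-κB or STAT3 as well, and which factor acted was not tested.

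**Figure D5:**
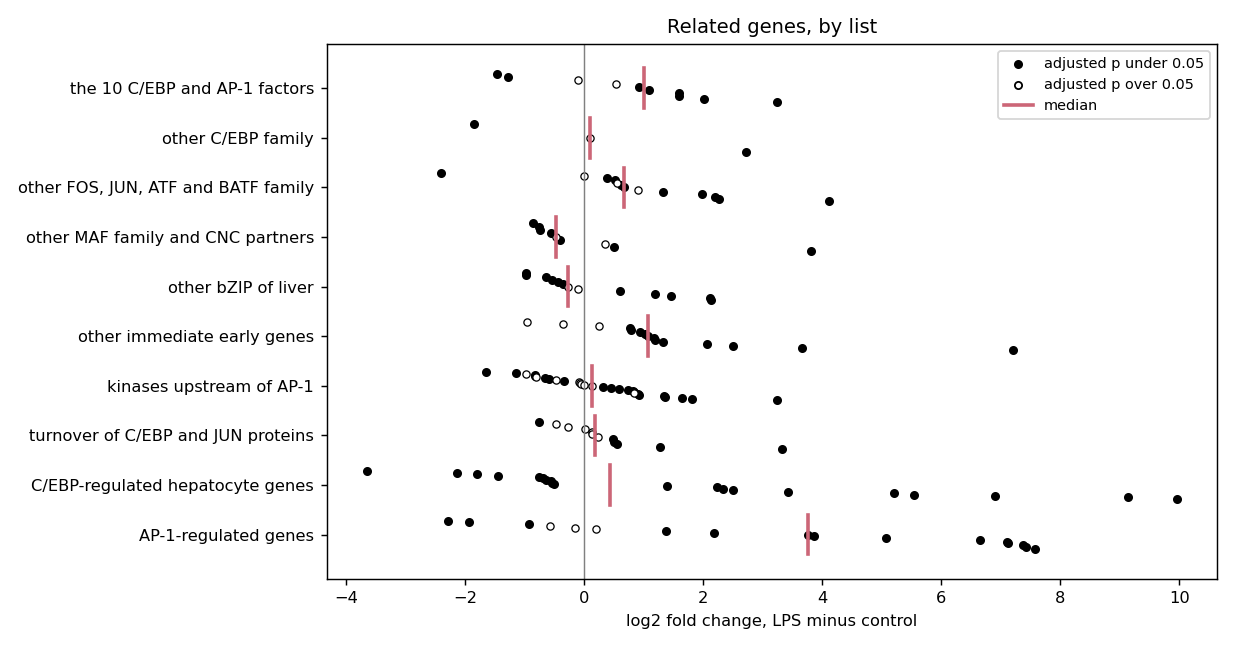
Log2 change, LPS minus control, of each tested gene in the 10 members and the 9 related gene lists; filled points have an adjusted p under 0.05, open points do not, and the red line is the median of each row. The list of AP-1-regulated genes has the highest median, 3.77, and that of MAF and CNC genes the lowest, -0.47.

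The gene closest to each member was sought among 8054 genes of at least 10 CPM in a group, by the root mean square difference in log2 CPM, relative to the control mean, over the 6 libraries. Fosl2 was closest to Rhbdf2, at 0.05, Cebpa to Acadvl and Cebpg to Ttc3, both at 0.06, and Cebpb to Plpp5 and Cebpd to Ifi204, both at 0.07. Fos was closest to Zfp518a at 0.08, Jund to Lysmd3 at 0.10, Maff to Rce1 at 0.17, Junb to Fgg at 0.18 and Jun to Sik1 at 0.20. Acadvl codes for a mitochondrial enzyme of fatty acid oxidation, and Fgg for the gamma chain of fibrinogen, an acute-phase protein. Sik1, a kinase gene induced by cyclic AMP, read 10.8, 16.6 and 23.7 CPM over control replicates 1, 2 and 3, the same order as Jun. With so many candidates some gene lies close to any pattern, so these are descriptions of 6 libraries.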

How the data were processed

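Raw counts per gene, deposited by the authors with 1 file per library, were read from 22488 rows, and 20722 rows were named by Entrez identifier. Per the submitters' processing notes the tools included bcl2fastq 2.0, HISAT2, StringTie, DESeq2 and limma on mm10; the counting settings, annotation and strand are not given in the sources used here. Genes with low counts were removed (edgeR's filterByExpr, minimum count 10, minimum total 15), and 12078 were tested with edgeR 4.0.16 in R 4.3.3 (TMM scaling, quasi-likelihood test, Benjamini-Hochberg adjustment). The count test was tested on simulated data. No value column was left unused. Levels per kb used the exon union of GENCODE M21 on GRCm38. Ratios of counts, with 0.5 added, were compared by exact permutation tests. Alternatives were RLE factors, library totals, no filter, a term for the repeat number, DESeq2 1.42.0 and leaving out each library. Promoters were taken from the RefSeq table of GRCm38.p6; protein sequences were not analysed here, nor were mitochondrial transcripts.

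The members and lists were chosen with earlier results of these data known. Named were all members, the called C/EBP, FOS, ATF, BATF, MAF and CNC genes with a mean of at least 1 CPM in a group, the 3 genes with the smallest adjusted p of each other list, and the 1 gene closest to each member; 2 genes that this rule names are not reported here. Replicates of a group differed beyond sampling noise in every pair.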

Additional observations from a re-analysis of the deposited data

How the results depend on the processing

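With 1 library left out, the log2 change ranged from -1.57 to -1.37 for Cebpa, 0.98 to 1.26 for Cebpb, 1.93 to 2.16 for Cebpd, -1.36 to -1.21 for Cebpg, 1.5 to 1.62 for Fosl2, 3.07 to 3.48 for Junb, 1.47 to 1.79 for Jund, 0.18 to 0.83 for Fos, -0.43 to 0.36 for Jun and 0.65 to 1.17 for Maff. Fos passed the test without LPS replicate 3 (0.83), Jun turned positive without control replicate 3 (0.36), and Maff missed the threshold in 4 of these 6 refits. Between 5 and 6 members rose, 2 fell, and 3372 to 3635 genes rose and 3510 to 3615 fell over all genes. Maff had the fewest counts of the members, 153 in control and 238 with LPS.

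The replicate block, a term for the repeat number, gave 3780 genes higher and 3766 lower, with 6 members higher and 2 lower; Jun turned to 0.04 and no other member's call changed. Deviations of same-numbered libraries correlated at -0.000745, 0.104 and 0.0352, and those of differently numbered libraries at -0.121 to 0.0741. So few pairs cannot tell whether the number marks a shared day or batch. Of 110 refits of the members, the 7 named above (4 of Maff, 2 of Jun, 1 of Fos) changed a call or a sign. Of the other 37 named genes, 7 lost their call in 22 refits, among them Bach1 under DESeq2 (adjusted p = 0.0573) and Atf2 under library totals (0.0634), and none changed sign. Library totals alone moved the median log2 change of all genes from 0.01 to -0.05. The differences of the 7 ratios kept their direction in 56 recalculations, but for most of these that was fixed beforehand. Groups that do not overlap keep their direction when 1 library is left out. Pairing by the repeat number leaves a difference of means unchanged.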
